A study of Mus musculus with 4 samples.

Results

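Transcription factors and coactivators of brown fat were followed here as 10 genes: Ppargc1a (Pgc1α), Ppargc1b, Prdm16, Ebf2, Zfp516, Pparg, Ppara, Cebpa, Cebpb and Esrra. Members are the probes that carry one of these names in the array files, each read on its own, which gave 13 probes on 24 spots, out of 55681 probes on 59305 spots in all. The genes are 10 of 32138 gene names on the array. The data came from 4 Agilent arrays of the mouse genome, read in 1 colour, with RNA of interscapular brown adipose tissue (iBAT) and epididymal white adipose tissue (eWAT) of wild-type (WT) and ASK1-deficient (ASK1KO) mice. Each array held Cy3-labelled RNA pooled from 3 male C57BL/6J mice aged 10 weeks under normal conditions. ASK1-deficient mice lack the kinase in the whole body, not in fat alone, and were bred apart from the WT mice, so genotype and colony cannot be told apart. There was 1 array for each genotype and tissue. A difference within a tissue or within a genotype was therefore not tested, and the spread between mice is unknown.

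Brown adipocytes burn fuel to make heat, and their identity rests on a small set of DNA-binding proteins with their coactivators. Pparg is the nuclear receptor that drives adipocyte differentiation in brown and white fat alike, together with the C/EBP factors Cebpa and Cebpb. Prdm16, Ebf2 and Zfp516 steer cells towards the brown or beige programme. The coactivators Ppargc1a and Ppargc1b dock on nuclear receptors such as Ppara and Esrra and raise mitochondrial and fatty acid oxidation genes. Ppargc1a is itself induced when cold activates β-adrenergic signalling, through cAMP and the p38 kinase, which lies downstream of ASK1.

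All values are processed signals of the scanner software or log2 differences of them after each array was set to its 75th percentile, which was 356 and 371 in iBAT of WT and ASK1-deficient mice, and 673 and 634 in eWAT. Signals are given in this order, WT first. The signals themselves are not scaled, so a signal that is equal in the tissues is a higher scaled level in iBAT. Of the probes, 52.1% to 60.0% were well above background on an array. Brown adipocyte marker signal, summed over 5 scaled probes, was 3797 and 3190 in iBAT of WT and ASK1-deficient mice, and 48.2 and 15.9 in eWAT. Pan-adipocyte markers lay between 1120 and 1339 on the 4 arrays. Of the 2 probes of Map3k5, which encodes ASK1, one had a log2 ratio of -2.002 in iBAT and -1.76 in eWAT, and the other had -0.060 and -0.51. None of the 3 epididymis marker probes was well above background on any array.

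The positions below are those of the array design, on mm9, with the strand of the transcript. Both Ppargc1a probes lie on the minus strand of chromosome 5, from 51848928 to 51848987 (probe 1) and from 51846926 to 51846985 (probe 2). They start 2002 bases apart in the transcript. The 3 Ppara probes lie on the plus strand of chromosome 15, from 85632110 to 85632169 (probe 1), from 85632534 to 85632593 (probe 2) and from 85637193 to 85637252 (probe 3). The other 8 genes have 1 probe each. Ppargc1b is read on chromosome 18 from 61458222 to 61458281, on the minus strand, and Prdm16 on chromosome 4 from 153690254 to 153690313, also on the minus strand. Ebf2 is read on chromosome 14 from 68048145 to 68048204, Zfp516 on chromosome 18 from 83171390 to 83171449 and Pparg on chromosome 6 from 115440213 to 115440272, each on the plus strand. Cebpa is read on chromosome 7 from 35906517 to 35906576 and Cebpb on chromosome 2 from 167515828 to 167515887, on the plus strand, and Esrra on chromosome 19 from 6985503 to 6985562, on the minus strand. Exons and UTRs were not assigned, since no annotation of this build was used. The Pparg probe was spotted 10 times and Ppara probes 2 and 3 were spotted 2 times each. Every other member probe was spotted once.

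**Figure D1:**
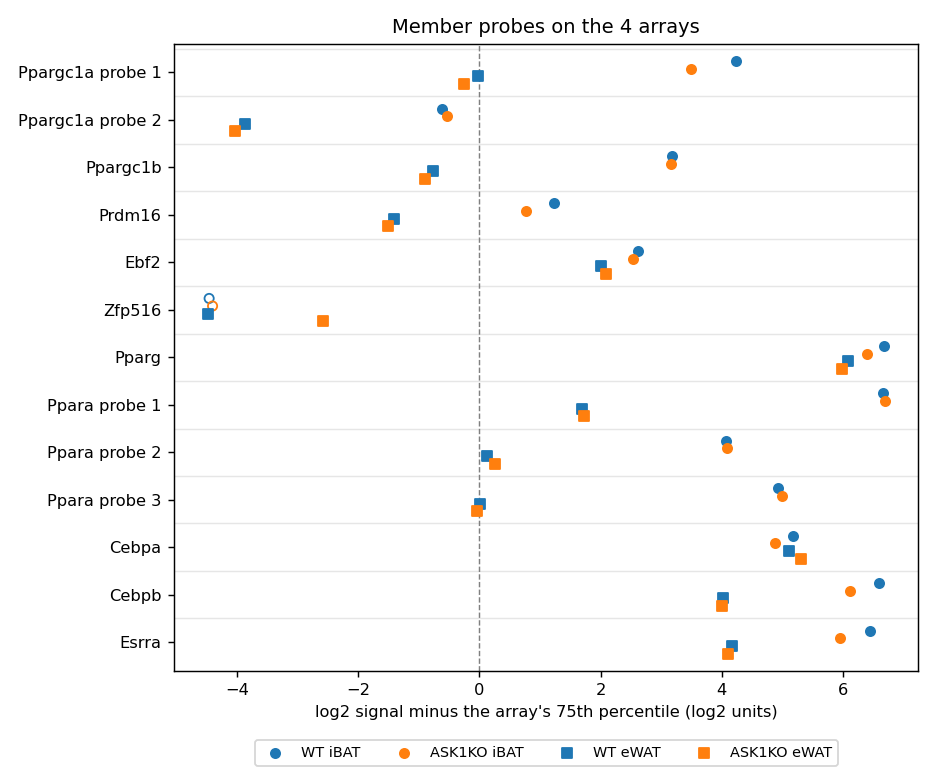
Scaled log2 level of each member probe on the 4 arrays, in log2 units relative to the array's 75th percentile (dashed line at 0). Each point is 1 array, circles are iBAT and squares eWAT, blue is WT and orange ASK1-deficient, and open symbols are not well above background. For 9 of the 13 probes the iBAT point lies at least 2-fold to the right of the eWAT point of the same genotype, and levels of different probes are not comparable with each other.

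Brown and white fat were compared first, within each genotype and then over the 4 arrays. Most of these regulators were far higher in brown fat. In both genotypes 9 of the 12 member probes measured in both tissues were at least 2-fold higher in iBAT. Among all probes this share was 16.9% in WT and 12.6% in ASK1-deficient mice. No measured member probe was at least 2-fold lower in iBAT, where the share of all probes was 10.5% in WT and 10% in ASK1-deficient mice. The median log2 ratio of the 12 probes was 2.95 in WT, beside 0.19 for all probes, and 2.89 in ASK1-deficient mice, beside 0.095. With tissue and genotype fitted together over the 4 arrays in limma, which has 2 pools per tissue, 11 of 12 member probes were higher in iBAT at an adjusted p under 0.05 and none was lower. Of all 27613 probes tested, 32.7% were called higher and 20.8% lower in iBAT. The residual of this fit has 1 degree of freedom per probe before moderation. It is the difference in the tissue effect between WT and ASK1-deficient mice. The SEs, intervals and p-values of the fit therefore do not measure the spread between mice.

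The coactivators had some of the widest gaps. Ppargc1a probe 1 gave signals of 6703 and 4152 in iBAT and 660 and 533 in eWAT of WT and ASK1-deficient mice. Both iBAT arrays were high and both eWAT arrays low, and after scaling iBAT was 19.2-fold higher in WT and 13.3-fold higher in ASK1-deficient mice. The log2 difference fitted by limma was 3.999 ± 0.18 (SE, adjusted p = 3.74e-05). Ppargc1a probe 2 gave 231 and 255 in iBAT of WT and ASK1-deficient mice and 45.9 and 38.6 in eWAT. It gave the same order of tissues with a smaller WT ratio, 9.54-fold, and 11.3-fold in ASK1-deficient mice (limma log2 difference 3.37 ± 0.15, SE, adjusted p = 3.86e-05). Its WT log2 ratio was 3.25, and 2.12 under normexp background correction, which adds an offset to every signal.

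Ppargc1b, the close relative that also coactivates oestrogen-related receptors, gave 3204 and 3322 in iBAT and 395 and 341 in eWAT of WT and ASK1-deficient mice. It was 15.4-fold higher in iBAT of WT and 16.7-fold higher in iBAT of ASK1-deficient mice (limma log2 difference 3.999 ± 0.15, SE, adjusted p = 2.22e-05). The 95% interval of the tissue difference was 3.64 to 4.36 for Ppargc1b, beside 3.56 to 4.44 for Ppargc1a probe 1.

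Among the nuclear receptors, Ppara, the receptor of fatty acid oxidation genes, had the largest tissue differences of the members, at its probes 1 and 3. Ppara probe 1 gave 35932 and 38186 in iBAT and 2188 and 2086 in eWAT, with both iBAT arrays far above both eWAT arrays. Its scaled level was 31.1-fold higher in iBAT of WT and 31.2-fold higher in iBAT of ASK1-deficient mice, and 0.344% and 0.257% of all probes had a higher ratio. Its limma log2 difference was 4.96 ± 0.15 (SE, adjusted p = 1.17e-05). Probe 3, with signals of 10822 and 11751 in iBAT and 681 and 618 in eWAT, gave 30.1-fold and 32.4-fold. Probe 2, with 5958 and 6303 in iBAT and 737 and 753 in eWAT, gave 15.3-fold and 14.3-fold. All 3 limma differences were called, and the 3 probes of the gene differed by up to 1.18 on the log2 scale in the size of the tissue difference, all with iBAT higher. Between its 2 spots, probe 2 varied with an SD of 0.052 in the WT ratio. Esrra, an orphan receptor that Ppargc1a activates on mitochondrial genes, gave 30834 and 23036 in iBAT and 12113 and 10929 in eWAT of WT and ASK1-deficient mice. Its scaled level was 4.82-fold higher in iBAT of WT and 3.60-fold higher in iBAT of ASK1-deficient mice (limma log2 difference 2.06 ± 0.17, SE, adjusted p = 0.000227).

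Pparg, the receptor shared by both kinds of fat, was close between them. Its signals were 36500 and 31278 in iBAT and 45458 and 40121 in eWAT of WT and ASK1-deficient mice. The unscaled signal was thus lower in iBAT, while the scaled level was 1.52-fold higher in WT and 1.33-fold higher in ASK1-deficient mice. Over its 10 spots the WT log2 ratio was 0.60 ± 0.059 (SD between spots). The limma log2 difference was 0.51 ± 0.15 (SE, adjusted p = 0.030), and its direction rested on the scaling, since the WT log2 ratio was -0.32 with no scaling and -0.021 after quantile normalization. Over the settings tried the limma adjusted p ranged from 0.012 to 0.90.

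The C/EBP factors parted. Cebpb, which acts early in differentiation and in the cAMP response, gave 34233 and 25825 in iBAT and 10910 and 10188 in eWAT of WT and ASK1-deficient mice. It was 5.94-fold higher in iBAT of WT and 4.33-fold higher in iBAT of ASK1-deficient mice (limma log2 difference 2.34 ± 0.17, SE, adjusted p = 0.000156). Cebpa, which sustains the mature adipocyte, gave 12778 and 10947 in iBAT and 23282 and 25028 in eWAT. Its scaled log2 ratio was 0.055 in WT and -0.42 in ASK1-deficient mice, and it was the single member probe tested by limma that was not called (log2 difference -0.18 ± 0.17, SE, 95% interval -0.61 to 0.24, adjusted p = 0.41). With no scaling or quantile normalization Cebpa was called lower in iBAT.

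Of the factors that steer the brown programme, Prdm16 gave 838 and 632 in iBAT and 254 and 222 in eWAT of WT and ASK1-deficient mice. It was 6.24-fold higher in iBAT of WT and 4.85-fold higher in iBAT of ASK1-deficient mice (limma log2 difference 2.46 ± 0.16, SE, adjusted p = 0.000110). Ebf2, which helps Pparg bind brown fat genes, was detected in both fats, with 2180 and 2137 in iBAT and 2713 and 2690 in eWAT. Its scaled ratio was 1.52-fold in WT and 1.36-fold in ASK1-deficient mice (limma log2 difference 0.52 ± 0.15, SE, adjusted p = 0.027, ranging from 0.0083 to 0.085 over the settings). As with Pparg, the sign turned with no scaling, where the WT log2 ratio was -0.32. Zfp516, a zinc finger factor known to act on the Ucp1 promoter, was barely detected. It gave 16.2 and 17.6 in iBAT, not well above background on either array, and 30.2 and 106 in eWAT, above background on both. It is therefore in no count of the tissue comparisons and not among the 27613 probes of the limma fit. Set against its own dim signal in iBAT, which lay above the floor of 17.3 on that array, it was at least 3.52-fold higher in eWAT of ASK1-deficient mice, and in WT mice no fold can be given.

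**Figure D2:**
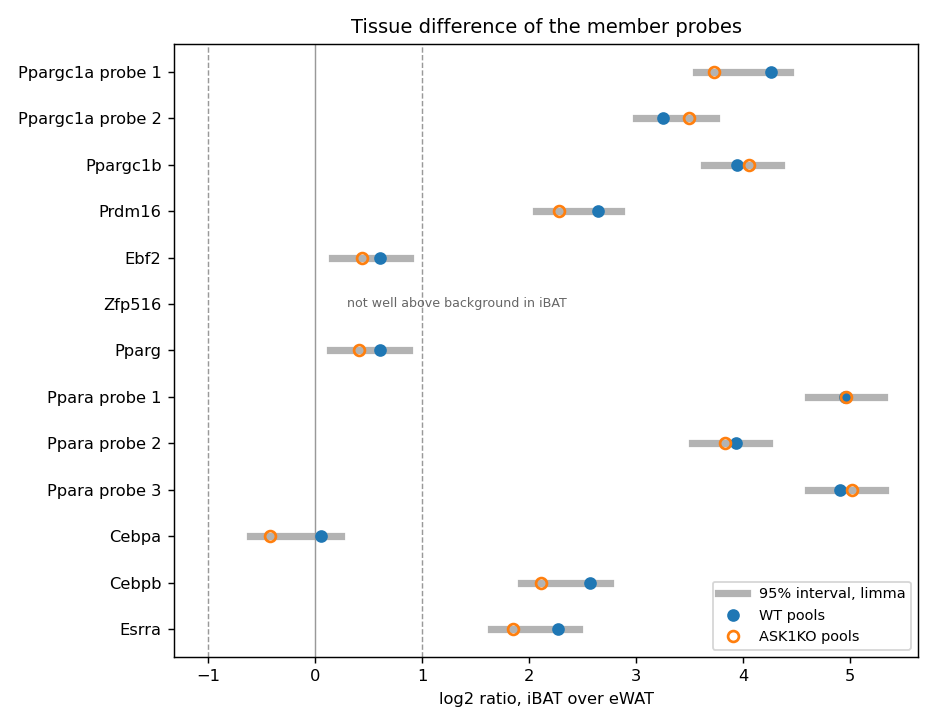
Log2 ratio of iBAT over eWAT for each member probe, in WT pools (blue) and ASK1-deficient pools (open orange), with the 95% interval of the limma tissue effect over the 4 arrays as a grey bar. Dashed lines mark 2-fold; 9 probes lie beyond the upper line in both genotypes, while Ebf2, Pparg and Cebpa lie between the lines.

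Whole fat pads were used, so fewer cells of a type and less RNA per cell cannot be told apart in any of these values. Other cell types moved with tissue too. The summed level of 6 skeletal muscle marker probes was 577 and 578 in iBAT of WT and ASK1-deficient mice against 8.18 and 4.04 in eWAT, with all 6 probes well above background in iBAT. The summed level of 10 macrophage marker probes was 16.8 and 21.1 in iBAT against 113 and 105 in eWAT. Ppargc1a, Ppara and Esrra are also expressed in muscle, and the part of other cell types in these tissue differences was not tested.

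The sequences just before the annotated gene starts are shown for 5 members that were at least 2-fold higher in iBAT in both genotypes. They were chosen because these members moved together between the tissues. Ppargc1b was also at least 2-fold higher in both, but its window was not read. RefSeq windows on GRCm38.p6 matched 7 of the 10 members by symbol, that is all but Ppargc1b, Ebf2 and Zfp516. Each line gives the 250 bases before the start, 5′ to 3′ on the gene's strand. Capitals mark TGACG, the core of cAMP response elements, AGGTCA, the hexamer of nuclear receptors, or TTGCNNAA, a C/EBP core, on either strand.
Ppargc1a, chr5:51567726-51567975, minus strand: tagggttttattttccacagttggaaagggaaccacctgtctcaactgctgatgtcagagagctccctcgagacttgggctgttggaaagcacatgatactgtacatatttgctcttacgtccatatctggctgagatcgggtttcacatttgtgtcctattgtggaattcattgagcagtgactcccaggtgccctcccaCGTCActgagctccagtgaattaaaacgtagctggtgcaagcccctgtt
Cebpb, chr2:167688665-167688914, plus strand: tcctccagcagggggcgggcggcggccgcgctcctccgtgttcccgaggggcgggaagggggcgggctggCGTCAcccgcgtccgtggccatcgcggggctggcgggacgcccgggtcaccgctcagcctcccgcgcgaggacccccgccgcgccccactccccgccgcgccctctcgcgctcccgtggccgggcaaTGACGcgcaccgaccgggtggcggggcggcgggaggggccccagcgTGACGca
Ppara, chr15:85735526-85735775, plus strand: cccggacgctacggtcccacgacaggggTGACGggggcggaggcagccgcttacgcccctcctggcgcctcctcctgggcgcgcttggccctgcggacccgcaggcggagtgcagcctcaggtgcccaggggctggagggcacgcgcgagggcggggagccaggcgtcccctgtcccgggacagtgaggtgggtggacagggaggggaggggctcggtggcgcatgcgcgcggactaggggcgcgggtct
Prdm16, chr4:154636874-154637123, minus strand: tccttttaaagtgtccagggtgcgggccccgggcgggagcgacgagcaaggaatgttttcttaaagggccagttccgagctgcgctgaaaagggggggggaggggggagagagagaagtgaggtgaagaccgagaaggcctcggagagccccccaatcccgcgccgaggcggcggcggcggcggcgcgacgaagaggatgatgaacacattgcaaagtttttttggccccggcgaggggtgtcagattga
Esrra, chr19:6921809-6922058, minus strand: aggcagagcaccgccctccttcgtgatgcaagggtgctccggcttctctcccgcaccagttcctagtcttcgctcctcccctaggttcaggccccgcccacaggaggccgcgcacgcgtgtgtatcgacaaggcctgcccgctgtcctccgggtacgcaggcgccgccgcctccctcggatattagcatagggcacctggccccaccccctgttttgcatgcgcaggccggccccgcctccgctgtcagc

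The cAMP core TGACG was found 3 times in the Cebpb window and 1 time each in those of Ppargc1a and Ppara, and in the Cebpb window the last match began 7 bases before the start. In Ppargc1a it began 49 bases before the start, on the opposite strand. This short motif is common, since 17.8% of 32851 RefSeq windows of the same length hold it on either strand. The full palindrome TGACGTCA, in which the core lies on both strands, occurs in 1.55% of windows and in none of the member windows read. AGGTCA, found in 14.0% of windows, lay in the windows of 2 Pparg starts, and the longer TCAAGGTCA of oestrogen-related receptors, which contains it and occurs in 0.387% of windows, lay in none. TTGCNNAA, found in 9.56% of windows, lay 2 times before the third Pparg start. CCCNNGGG, found in 11.8% of windows, lay in the windows of Cebpb and Ppara. Prdm16, Esrra and Cebpa held none of the 6 motifs. These matches describe letters and show no binding. Among the 5 windows shown, G and C made up 48.0% for Ppargc1a, 62.4% for Prdm16, 68.4% for Esrra, 76.4% for Ppara and 81.6% for Cebpb, with 52.4% as the median of all windows.

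The effect of ASK1 deficiency was compared next, within each tissue. In brown fat no member differed by 2-fold. Of 12 member probes measured on both iBAT arrays, 0 were at least 2-fold apart, beside 1.86% of all probes. The median log2 ratio of the 12, ASK1-deficient minus WT, was -0.19, beside -0.047 for all probes, and 8 of 12 were below 0 beside 56.2% of all probes. Where a probe was spotted repeatedly, the SD of this ratio over its spots was 0.087 at the median of 276 probes, a spread of the array and not of the mice. Of the 12 member probes, 5 were within it. Over the settings the median of the members ranged from -0.27 with the series table to -0.066 with quantile normalization. The medians of all probes in these 2 settings were -0.13 and -0.014.

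The lowest value was that of Ppargc1a probe 1, with a log2 ratio of -0.75, so that its scaled level was 1.68-fold lower in the ASK1-deficient pool. Of all probes, 2.27% had a lower ratio. Ppargc1a probe 2, on the same transcript, had 0.079 and did not share the direction, so the 2 probes of the gene were 0.83 apart on the log2 scale. Probe 1 lay between -0.84 and -0.62 over all settings. Esrra, Prdm16 and Cebpb followed with log2 ratios of -0.48, -0.47 and -0.47, which is 1.40-fold, 1.38-fold and 1.38-fold lower in ASK1-deficient iBAT. Between 7.48% and 7.96% of all probes had lower ratios than these. Pparg had -0.28 ± 0.050 over 10 spots (SD between spots) and Cebpa -0.28. These 6 probes, of 6 genes, stayed below 0 in every setting.

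The other 6 iBAT ratios changed sign with the setting. Ppara gave 0.026, 0.020 and 0.057 at its 3 probes, Ppargc1b gave -0.0094 and Ebf2 -0.090, and the remaining one is Ppargc1a probe 2. Ppara and Ppargc1b, with tissue differences among the widest, were thus nearly level between the pools. Macrophage markers were higher in ASK1-deficient iBAT at 9 of 9 measured probes (median log2 ratio 0.51), and adipocyte progenitor markers at 6 of 6 (median 0.59), while pan-adipocyte markers had a median of 0.077. The part of these cell types in the lower ratios of the members was not tested.

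**Figure D3:**
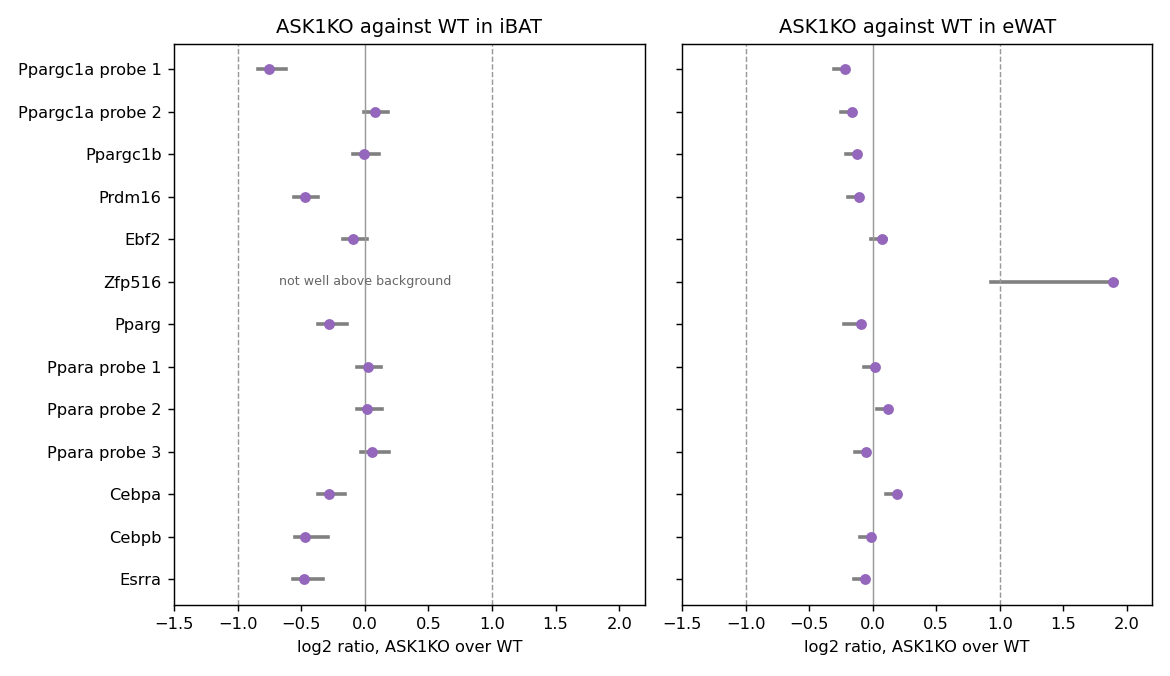
Log2 ratio of ASK1-deficient over WT for each member probe in iBAT (left) and eWAT (right). Points are the values as processed here, grey bars span all settings tried, and dashed lines mark 2-fold. In iBAT 6 probes stay left of 0 over their whole bar, none crosses the 2-fold line, and in eWAT Zfp516 alone reaches it.

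In white fat the members were close to even between the genotypes, with 1 exception. Of 13 member probes measured on both eWAT arrays, 1 was at least 2-fold apart, beside 1.03% of all probes, and the median log2 ratio was -0.052, beside 0.033 for all probes. That probe was Zfp516, which was 3.71-fold higher in ASK1-deficient eWAT (log2 ratio 1.89), from signals of 30.2 and 106 beside 18.9 and 20.7 as the dimmest probes that counted as well above background on these arrays. It rests on 1 dim spot per array. Under normexp background correction the log2 ratio was 0.93 and no longer past 2-fold.

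The remaining eWAT ratios lay between -0.22 and 0.19. The coactivators were on the lower side, with -0.22 and -0.16 at the 2 Ppargc1a probes and -0.13 for Ppargc1b, and each stayed below 0 in all settings. Prdm16 had -0.11, Pparg -0.093 and Esrra -0.061. Cebpa had the highest of these, 0.19. Ppara gave 0.019, 0.12 and -0.052 at its 3 probes. Cebpb, at -0.011, Ebf2, at 0.075, and Ppara probe 1 changed sign with the setting. The technical SD of this ratio was 0.060 at the median of 292 probes, and 3 member probes were within it. On the same arrays the brown fat genes Ucp1 and Cidea had log2 ratios of -4.63 and -2.23. Hepatocyte markers were lower in ASK1-deficient eWAT at 5 of 5 measured probes (median log2 ratio -4.26). The summed level of all 6 probes was 25.0 in WT and 6.57 in ASK1-deficient eWAT, against 10.8 and 12.2 in iBAT. On every array 1 Apoa2 probe was the brightest of these, with signals of 3579 and 4042 in iBAT and 6820 and 3835 in eWAT. In WT iBAT 3 of the 6 probes were well above background, so the sums do not rank the tissues for this RNA. Skeletal muscle markers were also lower in ASK1-deficient eWAT, at 3 of 3 measured probes (median -0.92), with summed levels of 8.18 and 4.04. The part of this RNA in the eWAT ratios was not tested.

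With genotype fitted over the 4 arrays in limma, 0 of 12 member probes and 0 of 27613 probes were called (0%), while 1 member probe and 1789 probes in all (6.48%) had an unadjusted p under 0.05. With normexp background correction 11 probes were called and with an intensity trend 2, none of them a member. Ppargc1a probe 1 was that member, with a log2 difference of -0.49 ± 0.18 (SE, 95% interval -0.92 to -0.047) and an adjusted p of 0.73 by limma. For Esrra the estimate was -0.27 (95% interval -0.68 to 0.14) and for Prdm16 -0.29 (95% interval -0.68 to 0.11). The fit takes the effect as equal in both tissues, with no replicate to test that.

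**Figure D4:**
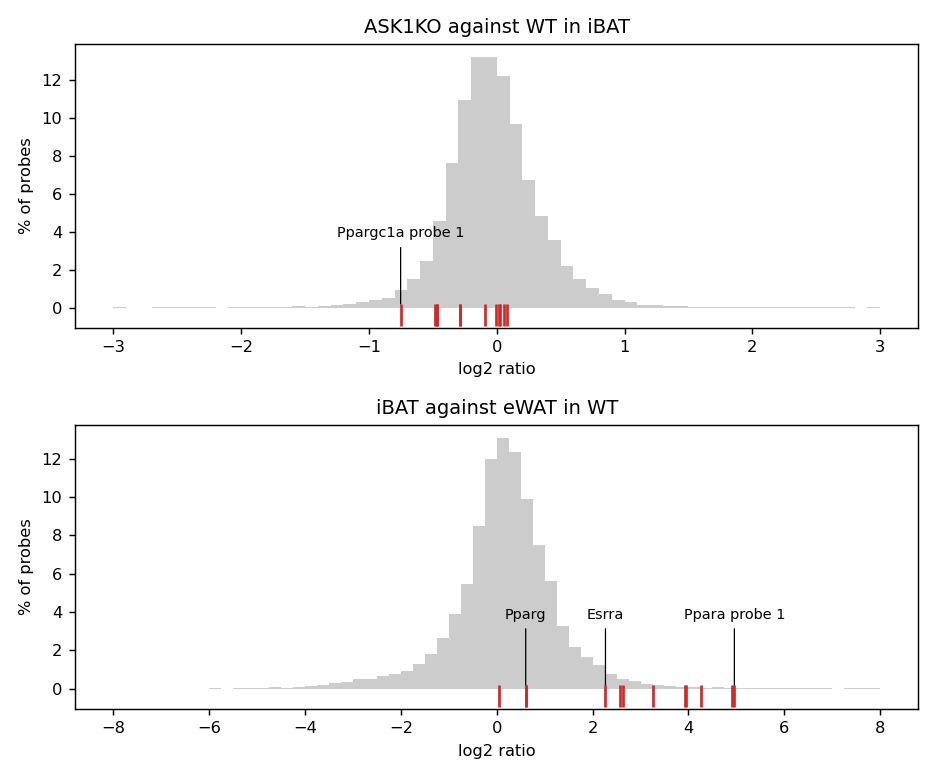
Distribution of log2 ratios over all measured probes (grey bars, percent of probes per bin, outermost bins holding all values beyond them), for ASK1-deficient over WT iBAT (top) and iBAT over eWAT in WT (bottom), with the 12 measured member probes as red ticks. In the top panel no member lies beyond 2-fold, and Ppargc1a probe 1 lies in the lower tail at -0.75. In the bottom panel 9 of 12 lie beyond 2-fold on the iBAT side.

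The lists of coregulators, nuclear receptors, mitochondrial biogenesis factors, cAMP and p38 responsive factors and adipocyte transcription factors held 77 genes with 132 probes. Of 117 measured in both WT tissues 21 (17.9%) were at least 2-fold higher in iBAT and 9 (7.69%) lower, with a median log2 ratio of 0.11. The shares of all probes were 16.9% and 10.5%. In ASK1-deficient mice 13 of 120 (10.8%) were at least 2-fold higher and 11 (9.17%) lower, with a median of -0.11, where the shares of all probes were 12.6% and 10%. Limma called 30 of 115 (26.1%) higher and 21 (18.3%) lower in iBAT, beside 32.7% and 20.8% of all probes. These shares lay near those of all probes. They leave out probes that were well above background in 1 tissue only, of which there were 11 in WT and 6 in ASK1-deficient mice.

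Set against the floor of the dim array, 4 of the left-out probes in WT were at least 2-fold higher in iBAT and 4 at least 2-fold lower, and in ASK1-deficient mice 4 and 1. The genes of this paragraph are named after their values were seen. Lhx8, Tbx15 and 1 of the 2 Zic1 probes, which read transcription factors known as markers of the classical brown fat lineage, were not well above background in eWAT of either genotype. That Zic1 probe gave 855 and 669 in iBAT and was at least 85.6-fold higher there than in eWAT in WT, and the bound in ASK1-deficient mice was 55.1-fold. The other Zic1 probe, measured on all arrays, had log2 ratios of 0.68 and 0.40. Lhx8 was at least 24.8-fold and 22.8-fold higher in iBAT, and Tbx15 at least 23.6-fold and 20.2-fold. One probe of Esrrb, a relative of Esrra, was at least 12.3-fold higher in WT iBAT. In ASK1-deficient mice this probe was measured in both tissues, with a log2 ratio of 2.27 and an eWAT signal of 37.4. The other Esrrb probe was not well above background on any array. In WT mice Gata3 and Foxc2 were at least 6.11-fold and 5.62-fold lower in iBAT. There 1 of the 2 Rbl1 probes and the second Zfp521 probe were at least 2.19-fold and 2.15-fold lower. None of these 4 probes was well above background in WT iBAT. The other Rbl1 probe was measured in both WT tissues and had a log2 ratio of -1.46. The highest and lowest values that follow hold among probes well above background in both tissues of a genotype.

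Among other coregulators, 3 of 31 probes tested were called higher and 5 lower in iBAT by limma. For this and the lists that follow, the shares of all probes were 32.7% higher and 20.8% lower. Perm1, a gene that Ppargc1a induces in muscle, had the highest WT log2 ratio, 6.78. In ASK1-deficient eWAT it was not well above background, so that it was at least 117-fold higher in iBAT there, and among the probes with a ratio Crebbp was highest with 0.52. Nrip1, a corepressor that opposes the oxidative programme, was lowest in both, with -2.37 in WT and -2.45 in ASK1-deficient mice at its first probe. Among other nuclear receptors 8 of 19 were called higher and 5 lower. Esrrg, a relative of Esrra, was highest with 5.05 in WT and 5.48 in ASK1-deficient mice, Nr2f2 was lowest in WT with -1.39, and Rxra was lowest in ASK1-deficient mice with -1.11.

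Mitochondrial biogenesis factors were called higher at 7 of 14 probes and lower at 1, beside 32.7% and 20.8% of all probes. Tfb2m, a mitochondrial transcription factor, was highest in WT with a log2 ratio of 1.58, Gabpa was highest in ASK1-deficient mice with 1.16, and Nrf1 was lowest in both, with -0.53 and -0.58. Of cAMP and p38 responsive factors 5 of 15 were called higher and 0 lower, a share of higher calls near that of all probes. Atf2, a substrate of p38, led in both genotypes at different probes. One had 1.93 in WT and 0.78 in ASK1-deficient mice, and another had 1.61 and 1.41, and Crtc1 was lowest with -0.49 and -0.34. Of other adipocyte and brown fat transcription factors 7 of 36 were called higher and 10 lower. Irf4 was highest in WT with 2.05 and Hlx in ASK1-deficient mice with 1.95. The bounds of Lhx8, Tbx15 and 1 Zic1 probe lie beyond both. Zfp521, which holds back the fat programme, was lowest in WT with -2.19 (the bounds of Gata3 and Foxc2 lie beyond it). Foxc2 was lowest in ASK1-deficient mice with -2.64.

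Between the genotypes, 2 of 120 regulator probes in iBAT and 1 of 121 in eWAT were at least 2-fold apart, that is 1.67% and 0.826%, beside 1.86% and 1.03% of all probes. Zbtb16, a zinc finger factor induced by glucocorticoids, had a log2 ratio of 2.23 in iBAT and 0.93 in eWAT. Tfam, which packages and transcribes mitochondrial DNA, had -1.13 in iBAT at a dim probe with signals of 96.3 and 45.9, while its other probes gave -0.29 and -0.033. Irf4, a partner of Ppargc1a in the response to fasting and cold, had 1.02 in eWAT and -0.57 in iBAT.

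The targets of these factors gave 17 probes for oxidative and thermogenic genes, of which 15 of 16 tested were called higher in iBAT by limma, beside 32.7% of all probes, with a median log2 difference of 6.29. In iBAT their median log2 ratio between the genotypes was -0.30, with 16 of 17 below 0, beside 56.2% of all probes, and 3 at least 2-fold lower, beside 0.941%. Among these 3 were Dio2 at -2.37 and Elovl3 at -4.10. The third was a dim probe of Cycs, the cytochrome c of the respiratory chain, at -1.24, while its other probes gave -0.28 and -0.31. It was named after its values were seen. The list was chosen with earlier results of these arrays known, those of Dio2 and Elovl3 among them, so its counts are not independent evidence of a direction. In eWAT the median was -0.84, with 6 of 16 at least 2-fold lower, beside 0.662% of all probes. Cox7a1, Cox8b, Cpt1b and Fabp3 of this list are also muscle genes, and the part of the muscle RNA described for eWAT in this median was not tested. Of 12 probes for adipocyte targets of Pparg, 6 were called higher and 3 lower in iBAT by limma, beside 32.7% and 20.8% of all probes. Between the genotypes the iBAT of ASK1-deficient mice was lower by 2-fold or more at 2 of the 12, beside 0.941% of all probes. Both read Agpat2, an enzyme of triglyceride synthesis also named after its values were seen, at -1.22 and -1.07.

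The probes most like Ppargc1a probe 1 were sought among 19134 probes of other genes with a symbol in RefSeq that were well above background on all 4 arrays. The measure was the Euclidean distance between the 4 scaled log2 values after centring on their mean. The nearest were Kctd1 at 0.13, Pde4d at 0.25, Dhrs9 at 0.27, AI854703 at 0.27 and Otop1 at 0.29. Of the other members Ppargc1b was nearest, at 0.53, with 0.152% of these probes nearer. Ppargc1a probe 2 lay at 0.86. The 4 values are dominated by the tissue gap, so the distance mostly reflects tissue.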

How the data were processed

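The authors deposited 1 scanner output per array, written by Agilent Feature Extraction 10.7.3.1. Its processed signal is a linear intensity, already background-subtracted and not scaled between arrays. They also deposited a series table of signal values, which here equalled the processed signal of each array divided by 1 constant that sets its median to 1. Positions are those of the array design, on mm9.

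Control spots and outlier-marked spots were removed. Log2 signals were averaged over the spots of a probe, and the 75th percentile over all usable probes of the array (55676 to 55681) was then subtracted. A probe was well above background where the scanner software marked most of its usable spots so. Levels of different probes were not compared. A pair of arrays was called different where the ratio was at least 2-fold. Technical spread was taken from probes with 5 or more spots, as the SD of their log2 ratios. Tissue and genotype were fitted together with limma 3.58.1 in R 4.3.3, using the 27613 probes that stood well above background on every array, with Benjamini-Hochberg adjustment and a threshold of 0.05. The 4 arrays share 1 slide, and their number limits the precision.

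The members, the lists and the tests were chosen with earlier results of these data known. All members were named, and of each list of other regulators the genes at least 2-fold apart between the genotypes and the highest and lowest between the tissues. As alternatives, normexp (offset 50), the series table, other scalings, other filters on dim probes, a 1.5-fold threshold and other variance models were tried. The limma tissue fit and the 2-fold count were tested on simulated data, and the other steps were not. Upstream sequences came from RefSeq on GRCm38.p6. Software was Python 3.11.15 with matplotlib 3.10.9, pandas 2.3.3 and numpy 2.4.6.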

Additional observations from a re-analysis of the deposited data

Results flagged for a closer look

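Cebpa and Ebf2 had log2 ratios below 0 in iBAT and above 0 in eWAT. For Cebpa, the log2 ratio of the ASK1-deficient to the WT array was lower in iBAT than in eWAT by a difference of -0.48, from -0.28 in iBAT and 0.19 in eWAT. For Ebf2 the difference was -0.17, from -0.090 in iBAT and 0.075 in eWAT. With 1 array per genotype and tissue, neither difference was tested. In Cebpa the iBAT value was below 0 and the eWAT value above 0 under each of the 9 other settings. In Ebf2 the sign changed with the setting in both tissues. Opposite signs the other way stood at Ppargc1a probe 2, with 0.079 in iBAT and -0.16 in eWAT, and at Ppara probe 3, with 0.057 and -0.052, where the iBAT values were within the technical spread between spots.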

How the results depend on the processing

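No paired analysis was possible because the labels number no replicates, with 1 array per genotype and tissue. Leaving out an array would leave a ratio within a tissue or genotype with nothing on one side, and the limma fit of tissue with genotype with no residual degree of freedom. Without the other factor, limma called 11 member probes between the tissues and 0 between the genotypes. The count of member probes at least 2-fold apart between the genotypes in iBAT was 0 in each setting except the 1.5-fold threshold, where it was 1, the first Ppargc1a probe. In eWAT it was 1 (Zfp516), and became 0 with normexp background correction, where its log2 ratio was 0.93, and 0 where probes had to be well above background on all 4 arrays, which removes Zfp516 by construction. Between the tissues, the counts stayed within 1.5 times of 9 in both genotypes under every alternative, and no called ratio reversed. With no scaling, which lowers the median of all tissue ratios by 0.92 in WT and by 0.77 in ASK1-deficient mice, Pparg and Ebf2 changed sign and Cebpa stood at -0.87 in WT and -1.19 in ASK1-deficient mice. The limma tissue calls of member probes ranged from 9 to 11 and the genotype calls stayed at 0. The cause of the change under normexp was not tested.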
